A study of Homo sapiens with 18 samples.

Results

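The effect of raising EHF was followed in SCC25, an established human cell line from a squamous cell carcinoma of the tongue. The members are 4 RNA libraries of 18 samples in the series (16 of these are RNA libraries), chosen by their labels: 2 libraries of SCC25 cells overexpressing EHF and 2 of SCC25 control cells. The series also raised EHF in A253, a salivary gland carcinoma line, and lowered it in CAL27, a tongue carcinoma line. Overexpressing cells received doxycycline (1 ug, with no volume given) in their medium, and controls grew in regular medium. Both groups otherwise had the same DMEM/F12 medium with serum and antibiotics. An effect of EHF and one of doxycycline therefore cannot be told apart here. The sources used here do not say whether the controls carry the vector, whether the cells are 1 clone, or whether replicates are separate cultures, so p-values measure only the spread between these libraries, which may be technical.

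EHF belongs to the epithelial branch of the ETS transcription factors, which recognise short DNA sequences built around GGAA. It is made mainly in epithelia, among them glands and the differentiating layers of stratified epithelia, and it is known for regulating genes of the epithelial barrier and of mucosal defence. Other ETS factors, such as ETV1 and ETV5 of the PEA3 group, act downstream of growth factor signalling through ERK kinases.

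The 4 libraries held 10728569 to 15965279 counts on genes, and 17522 to 17935 genes had at least 1 count. One library, overexpression replicate 1, stood apart in the MTRNR2L genes and, by less, in small nuclear and nucleolar RNAs. The MTRNR2L genes, nuclear near-copies of a mitochondrial ribosomal RNA between which reads cannot be assigned with certainty, took 1.61% of the counts of overexpression replicate 1, against 0.0428% and 0.0345% in the controls and 0.0541% in overexpression replicate 2. MTRNR2L8 had 1710 and 1291 counts in the controls and 48003 and 2172 with overexpression. Between the overexpression libraries the chi-square per degree of freedom was 16.6 with these 9 genes and 2.01 without them, while the controls differed by 2.92 with them and 2.91 without. No MTRNR2L gene passed the test below, and leaving them out of the fit gave 3368 called genes in place of 3370. Among 11320 genes at an average log2 CPM of at least 2, 8 differed 2-fold or more between the overexpression libraries, all higher in replicate 1: 5 MTRNR2L genes and the small RNAs SNORD33, RNU6ATAC and MIR3648, named here after their values were seen. Other small RNAs leaned the same way, such as SNORA48 with a log2 gap of -0.99 and RNU11 with -0.83 (replicate 2 minus replicate 1), also named after their values were seen. The controls differed that much in 1 gene and the groups in 81.

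The libraries carried the markers of squamous epithelium. All 14 markers of that list passed the filter on low counts, and KRT5, a keratin of basal keratinocytes, stood at 6492 and 6820 CPM (here with TMM-adjusted library sizes) in the controls and 6305 and 6495 CPM with overexpression. The summed level of the 14 markers was 19900 and 20820 CPM in the controls and 21080 and 21670 CPM with overexpression. Among markers of leukocytes 3 of 14 were above the filter, with 1 to 6 counts per library of PTPRC and at most 2 of CD3E. For endothelium 3 of 10 were, for muscle 2 of 9, for neural cells and melanocytes 5 of 12, and for fibroblasts 9 of 12.

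EHF itself roughly doubled. It was at 461 and 420 CPM in the control libraries and 859.5 and 892 CPM in the overexpression libraries, a log2 change of 0.99 (SE 0.06, edgeR adjusted p = 9.11e-13). The groups did not overlap and the gap between them was several times the spread within either. Counts are summed by gene symbol, so transcripts of the introduced copy and of the cells' own gene cannot be separated. The group averages were 440.4 ± 28.7 and 876 ± 23.2 CPM (SD, n = 2 each).

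A broad response of small size accompanied this rise. Of 14120 genes tested by edgeR's quasi-likelihood test with Benjamini-Hochberg adjustment at 0.05, 3370 were called (23.9%), of which 1728 were higher (12.2%) and 1642 lower (11.6%), a balance that turned to 1557 higher and 1974 lower with library totals alone. The median absolute log2 change of the called genes was 0.306, and 2830 of them (83.98%) changed by less than 1.5-fold. Changes of at least 2-fold were mostly rises: 164 genes were at least 2-fold higher (1.16%) and 28 at least 2-fold lower (0.198%), together 1.36% of the genes tested. The libraries of the 2 groups did not overlap for 8586 genes (60.8%), which is the background for every statement below that groups do not overlap. DESeq2 called 842 genes higher (7.06% of the 11930 it tested) and 757 lower (6.35%), and a fit joined with the A253 libraries called 1872 in all. Without overexpression replicate 1 or 2 the count was 2228 and 2124.

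**Figure D1:**
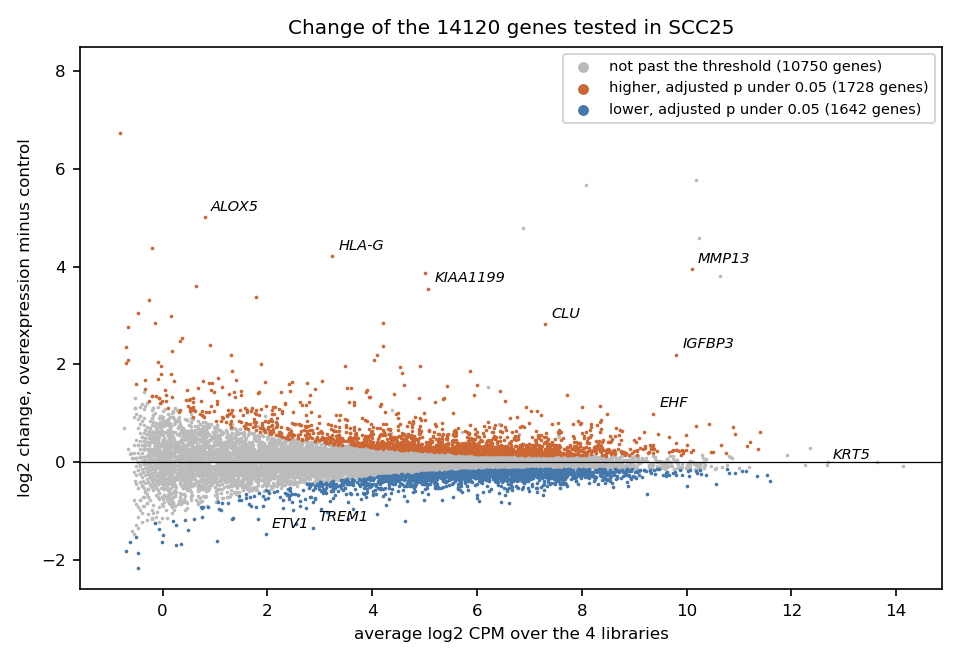
Each point is 1 of 14120 genes, with its average log2 CPM over the 4 SCC25 libraries on the x axis and its log2 change with EHF overexpression on the y axis. Orange and blue points passed the test as higher (1728 genes) or lower (1642), grey points did not, and the grey points at the upper right are MTRNR2L genes that are high in 1 overexpression library. The called changes are mostly small and the large ones point upwards.

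The 12 largest rises among well-detected genes joined secreted proteins, proteases and matrix proteins. MMP13, a collagenase, went from 142 and 124 CPM to 2191 and 1935 CPM (log2 change 3.96, adjusted p = 1.18e-21). KIAA1199, which promotes the breakdown of hyaluronan, was at 5.25 and 5.61 CPM in the controls and 64.4 and 63.2 CPM with overexpression. Only called genes whose groups do not overlap could enter this list, so the separation of their libraries was fixed by the choice. CLU, the secreted chaperone clusterin, rose 7.11-fold, from 39.8 and 38.7 to 293 and 267 CPM (adjusted p = 1.18e-21). IGFBP3, the main carrier of insulin-like growth factors, rose 4.61-fold from 322 and 316 to 1499 and 1439 CPM (adjusted p = 3.3e-20), which placed it among the most abundant transcripts that moved. MMP7, the protease matrilysin, was 5.13 and 4.13 CPM in the controls and 19.3 and 17.4 CPM with overexpression.

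Other leading rises started from low levels. B4GALNT2, the glycosyltransferase that makes the Sd(a) antigen, had 4.57 and 3.79 CPM in the controls and 63.3 and 60.8 CPM with overexpression. LAPTM5, a lysosomal membrane protein best known from blood cells, had 4.82 and 4.46 CPM in controls against 32.5 and 33.9 CPM. SLC16A12, a creatine transporter, rose from 6.05 and 6.22 to 33.4 and 30.7 CPM. In these 3 genes the replicates of each group lay close together. ABI3BP, a matrix protein, rose 4.56-fold to 28.96 and 28.6 CPM and TRIM55, a ubiquitin ligase otherwise known from muscle, 4.25-fold to 26.03 and 28.2 CPM. CNGB1, a subunit of cyclic nucleotide-gated channels, was 11.6 and 13.7 CPM in the controls and 49.1 and 48.9 CPM with overexpression (adjusted p = 2.84e-14). HLA-G, a non-classical class I molecule whose reads are hard to tell from other class I genes, held 1.79 and 0.135 CPM in unequal controls and 17.4 and 19.8 CPM with overexpression. Its log2 change was 4.22 (adjusted p = 0.0116), 7.02 without control replicate 1 and 3.38 without control replicate 2.

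The largest falls among well-detected genes were smaller. TREM1, an innate immune receptor, fell from 9.82 and 10.01 to 4.06 and 3.79 CPM (log2 change -1.34, adjusted p = 9.63e-07), and TDO2, which breaks down tryptophan, from 7.72 and 7.84 to 3.11 and 3.33 CPM. TNFAIP6, a hyaluronan-binding protein, dropped from 22.8 and 22.1 to 10.5 and 10.9 CPM, and TNFRSF8 (CD30) from 14.4 and 16.5 to 6.98 and 6.79 CPM. The falls were chosen under the same condition, so the separation of their groups was fixed as well. FGFR1, a fibroblast growth factor receptor, changed by -0.96 on the log2 scale, from 9.88 and 10.8 to 5.19 and 5.39 CPM (adjusted p = 4.07e-05). UBASH3B, a phosphatase acting on tyrosine kinases, had 15.7 and 15.96 CPM in the controls and 8.395 and 7.85 CPM with overexpression (log2 change -0.97). PMP22, a membrane protein of myelin and epithelia (-0.94), MSC, the transcriptional repressor musculin (-1.01), and ABCG2, a drug efflux pump (-0.90), fell by similar log2 amounts. TMPRSS13, a serine protease of the cell surface (-0.93), and HTATSF1P2, a pseudogene whose reads may belong to its parent gene (-1.21), complete the list with ETV5.

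**Figure D2:**
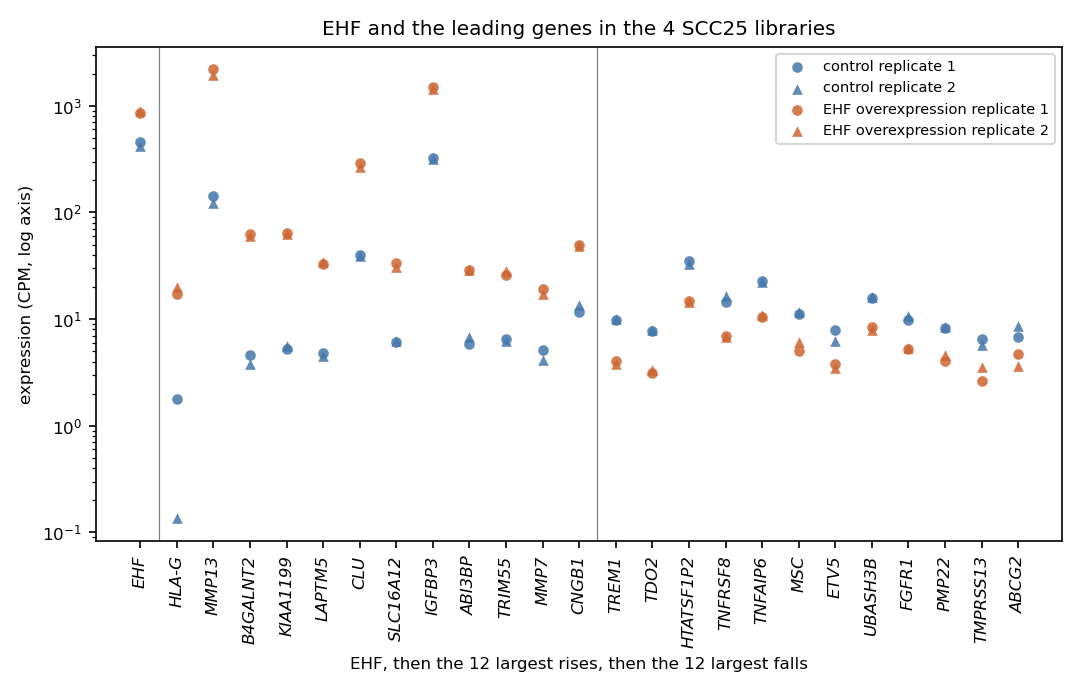
Expression of EHF, of the 12 largest rises and of the 12 largest falls, as CPM on a log axis, in each of the 4 SCC25 libraries (blue control, orange EHF overexpression, circle replicate 1, triangle replicate 2). The rises are larger than the falls, and the HLA-G controls lie apart at 1.79 and 0.135 CPM.

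ETS factors other than EHF were divided. Of 21 tested, 7 were higher (EHF included) and 5 lower, with a median log2 change of 0.08 (over all 14120 genes the median was 0.00). The falls included the PEA3 factors ETV1, from 5.44 and 5.21 to 2.26 and 1.66 CPM (log2 change -1.47, adjusted p = 3.22e-05), and ETV5, from 7.91 and 6.29 to 3.77 and 3.46 CPM (-0.99, adjusted p = 0.000344). ETV7, an interferon-induced member, was 0.74 higher (adjusted p = 0.00967), a call that ended with DESeq2 and without control replicate 2 or overexpression replicate 2. ELF3, an epithelial relative of EHF, stood at 8.28 and 7.51 CPM in controls against 7.45 and 7.05 CPM (adjusted p = 0.59), and ELF5 had no counts in any library. Higher calls in this list were 2 without overexpression replicate 2 and 3 with DESeq2.

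Of 17 genes that ERK signalling induces, many of them its own brakes, 5 were lower and 2 higher (median -0.15). DUSP6, a phosphatase that switches off ERK, went from 22.9 and 26.4 to 14.8 and 14.5 CPM (log2 change -0.75, adjusted p = 7.1e-06, not past the threshold in the joint fit). PHLDA1 (0.54, not past the threshold in the joint fit) and the receptor kinase EPHA2 (0.46) were the rises. Among ERBB receptors and ligands 4 of 13 rose and 2 fell (2 rises in the joint fit or without overexpression replicate 1). EGFR was at 484 and 411 CPM in the controls and 593 and 606 CPM with overexpression (0.42, adjusted p = 1.4e-05, not past the threshold in the joint fit), and ERRFI1, an inhibitor of EGFR, rose from 185 and 186 to 332 and 312 CPM. Of its ligands, EPGN changed by -1.17 and EREG by -0.53 on the log2 scale. The falls among ERK feedback genes numbered 2 with DESeq2 and 3 without control replicate 2 or overexpression replicate 2.

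AP-1 factors and immediate early genes, which respond within minutes to stress and growth signals, moved upwards: 8 of 19 were higher and 0 lower by edgeR (median 0.27; DESeq2 called 6 higher and 0 lower). ATF3, a stress-induced factor, more than doubled, from 7.35 and 8.52 to 17.3 and 18.1 CPM (adjusted p = 9.98e-08). KLF6 (0.57), JUND (0.43) and JUN (0.38, a call lost in the joint fit) rose less, and FOS was within its spread at 5.003 and 6.56 CPM in controls against 5.94 and 7.39 CPM (adjusted p = 0.372). Squamous lineage factors gave 6 rises and 1 fall of 21 (3 rises in the joint fit). TP63, a key factor of basal squamous cells, rose from 576 and 544 to 866 and 807 CPM and GRHL1, a factor of epidermal differentiation, from 56.2 and 55.9 to 89.04 and 88.04 CPM, while the stem cell factor SOX2 fell from 14.6 and 12.2 to 9.06 and 8.25 CPM. In the Notch pathway 8 of 24 genes were higher and 0 lower by edgeR, for example DTX4 (0.57). NOTCH1 (21.9 and 20.6 CPM in controls against 26.2 and 19.03 CPM) and its target HES1 (58.5 and 59.7 CPM in controls against 56.97 and 60.8 CPM) overlapped between groups. Notch calls were 4 with DESeq2, 4 without control replicate 2 or either overexpression replicate, and 2 in the joint fit.

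Several families of secreted proteases and of protease inhibitors held rises and no fall. Of 15 matrix metalloproteinases tested, 6 were higher and 0 lower by edgeR (4 and 0 by DESeq2), and the collagenase MMP1 moved much less than MMP13, from 15.7 and 15.1 to 21.03 and 23.8 CPM. Their inhibitor TIMP3 rose from 489.7 and 437 to 718 and 702 CPM (log2 change 0.62) while TIMP1 stood at 79.3 and 83.2 CPM in controls against 74.8 and 71.1 CPM (adjusted p = 0.0551). Among kallikreins, secreted proteases that loosen cell contacts in shedding epithelium, 6 of 9 were higher and 0 lower by edgeR (5 and 0 by DESeq2), with a median log2 change of 0.66. KLK7 doubled from 31.2 and 30.9 to 65.1 and 60.7 CPM, KLK10 went from 24.1 and 22.1 to 44.6 and 39.5 CPM, and KLK5, the abundant one, from 221 and 239 to 316 and 331 CPM. KLK9, at 9.88 and 11.6 CPM in controls against 39.6 and 36.5 CPM, lies beside other kallikreins in a dense cluster, so that its reads are uncertain where the counting did not use strand. In the plasminogen system PLAT, the tissue activator, rose from 6.67 and 7.64 to 16.7 and 16.7 CPM, within 2 rises and 4 falls of 10.

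SERPINB proteins, intracellular protease inhibitors of squamous epithelia, had 6 of 11 members higher and 0 lower by edgeR (4 and 0 by DESeq2; 5 and 0 in each fit that left 1 library out). SERPINB3 was at 115 and 119 CPM in the controls and 307 and 303 CPM with overexpression, and its near-identical neighbour SERPINB4, whose reads may be exchanged with it, at 29.9 and 34.96 CPM in controls against 92.9 and 99.1 CPM. SERPINB13 rose 2.74-fold, from 49.1 and 44.7 to 133 and 125 CPM (adjusted p = 4.43e-15). The maspin gene SERPINB5 did not pass, with 255 and 261 CPM in controls against 249 and 245 CPM (adjusted p = 0.414). Cell-surface serine proteases gave 4 rises and 1 fall of 9: TMPRSS4 rose from 59.3 and 51.7 to 128 and 134 CPM and TMPRSS11E from 3.397 and 3.31 to 10.2 and 10.4 CPM, against the fall of TMPRSS13 described above.

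Promoter windows of 2 of these protease system genes and of LAPTM5 are shown because each holds an AP-1 or ETS-type sequence. These were among the short sequences searched. The MMP7 window also holds CCAAT, another of them, which is not marked. Windows come from RefSeq (GRCh38.p14), run from 250 bases before to 20 after an annotated start, 5′ to 3′ on the gene's strand, and capitals mark the match. The AP-1 sequence is TGANTCA, which 7.71% of all 35116 windows of 300 bases (250 before to 50 after a start) hold on either strand, and 7 of 17 windows of the 11 SERPINB genes (41.2%). Of the SERPINB genes named above, SERPINB3 and SERPINB4 rose and lack it. SERPINB13 rose and holds it, and SERPINB5 did not pass and holds it. For LAPTM5 the match is AGGAAGTG, an ETS-type sequence present in 3.65% of all windows. MMP7 lies at chr11:102530728-102530997 (minus strand), SERPINB13 at chr18:63587093-63587362 (plus strand) and LAPTM5 at chr1:30757755-30758024 (minus strand). A match describes the letters only and does not show that a factor binds there.
MMP7: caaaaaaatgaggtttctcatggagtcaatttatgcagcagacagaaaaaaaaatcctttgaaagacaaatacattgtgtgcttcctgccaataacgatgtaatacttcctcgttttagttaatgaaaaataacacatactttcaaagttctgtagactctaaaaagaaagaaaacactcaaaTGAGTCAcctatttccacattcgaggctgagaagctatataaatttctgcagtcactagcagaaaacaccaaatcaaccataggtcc
SERPINB13: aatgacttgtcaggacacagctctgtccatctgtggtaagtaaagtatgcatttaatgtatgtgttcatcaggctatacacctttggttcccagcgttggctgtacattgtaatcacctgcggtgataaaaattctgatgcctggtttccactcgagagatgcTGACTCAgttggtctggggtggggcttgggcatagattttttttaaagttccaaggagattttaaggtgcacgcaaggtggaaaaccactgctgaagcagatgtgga
LAPTM5: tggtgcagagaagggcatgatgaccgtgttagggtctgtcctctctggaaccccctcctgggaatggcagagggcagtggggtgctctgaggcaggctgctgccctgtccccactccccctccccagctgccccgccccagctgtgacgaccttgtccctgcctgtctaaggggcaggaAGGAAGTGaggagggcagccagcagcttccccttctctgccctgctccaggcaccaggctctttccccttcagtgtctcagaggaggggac

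Secreted proteins of mucosal defence were higher where they changed. Of 18 tested, 12 were higher and 0 lower by edgeR, with a median log2 change of 0.77. DESeq2 called 5 higher and 0 lower, and without control replicate 2 edgeR called 6. LCN2, which withholds iron from bacteria, was at 25.8 and 24.6 CPM in the controls and 89.8 and 94.96 CPM with overexpression (log2 change 1.87, adjusted p = 1.23e-16). SLPI, an inhibitor of neutrophil elastase, rose from 216 and 207 to 330.2 and 399 CPM, a call that ended without control replicate 2, and its relative PI3 (elafin) from 4.32 and 3.58 to 10.8 and 9.98 CPM. PIGR, which carries antibodies across epithelia, rose from 0.865 and 0.879 to 2.64 and 5.06 CPM, with overexpression libraries unlike each other. Mucins formed a separate list, in which 1 of 3 tested was higher by edgeR and 0 by DESeq2. In it MUC4 was nearly absent from the controls, with 0.185 and 0.271 CPM, and reached 3.02 and 2.73 CPM with overexpression. MUC1 changed by 0.34 on the log2 scale. Of the calprotectin subunits S100A8 was 0.37 higher and S100A9 0.22 higher on the log2 scale, and the latter call ended without control replicate 2 or overexpression replicate 2 and in the joint fit.

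ALOX5, the 5-lipoxygenase that starts leukotriene synthesis, had 3 counts in both control libraries together and 87 counts with overexpression, a ratio of 35.1 (exact 95% interval 11.6 to 173, covering counting error only). The eicosanoid list, ALOX5 included, was divided, with 6 of 20 higher and 5 lower. PTGS2, the inducible cyclooxygenase, went from 43.7 and 45.1 to 72.4 and 65.1 CPM. DESeq2 called 1 higher and 3 lower in this list, and leaving out control replicate 2 or either overexpression replicate left 3 higher. Chemokines gave 6 rises and 1 fall of 26. CXCL16 rose from 15.3 and 14.9 to 30.4 and 29.95 CPM, CCL28, which attracts antibody-secreting cells, from 3.89 and 3.45 to 9.43 and 8.05 CPM, and TNFSF10 (TRAIL) from 248 and 218 to 386 and 406 CPM. CXCL1 fell from 62.8 and 59.8 to 48.2 and 46.9 CPM and IL8 overlapped between groups at 40.6 and 42.9 CPM in controls against 42.5 and 41.2 CPM. In the interleukin 1 family 1 of 18 rose and 5 fell: IL1B was 0.29 higher on the log2 scale and IL18 fell from 81.3 and 81.6 to 60.9 and 65.8 CPM. Falls in that family were 2 with DESeq2 and 3 and 2 without overexpression replicate 1 and 2.

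Interferon response genes were higher by small amounts. By edgeR 32 of 48 tested were higher and 0 lower, with a median log2 change of 0.31, and none reached 2-fold. DESeq2 called 27 higher and 0 lower, and 25 to 33 were higher when 1 library was left out. The median over the list was 0.38 in overexpression replicate 1 and 0.23 in replicate 2, each against the mean of the controls, on the scale of log2(CPM + 0.5). IFITM1, which blocks virus entry, rose from 95.9 and 107 to 202 and 196 CPM (adjusted p = 1.67e-12), SAMD9L rose from 20.3 and 22.1 to 40.8 and 39.1 CPM, and TRIM22 from 18.8 and 25.02 to 44.1 and 36.2 CPM. IFIT1 (46.02 and 50.98 CPM in controls against 68.4 and 58.03 CPM) and ISG15 (59.1 and 65.5 CPM in controls against 78.9 and 73.1 CPM), standard reporters of the response, rose by 0.37 and 0.28, the latter not past the threshold in the joint fit. MX1 and MX2 were listed at 0 in every library.

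Genes of antigen presentation were also higher: 19 of 29 members were higher and 0 lower by edgeR (14 and 0 by DESeq2), with a median log2 change of 0.38. B2M, the light chain of class I, increased from 1398 and 1478 to 2375 and 2357 CPM (log2 change 0.72, adjusted p = 1.5e-10). HLA-B went from 859 and 874 to 1427 and 1476 CPM and HLA-F from 67.95 and 70.6 to 132 and 126 CPM. In all 3 the replicates of a group differed by far less than the groups, although reads of class I genes can be exchanged between these similar sequences. The NF-kB list gave 10 rises and 1 fall of 24. IRF1, a factor that switches on class I genes, rose from 54.7 and 55.7 to 83.1 and 84.4 CPM and the adhesion receptor ICAM1 from 34.4 and 36.04 to 50.1 and 52.7 CPM. The feedback inhibitors NFKBIA (535 and 522 CPM in controls against 488 and 502 CPM, adjusted p = 0.195) and TNFAIP3 (109.8 and 104 CPM in controls against 99.1 and 98.2 CPM, adjusted p = 0.144) did not pass. DESeq2 called 6 of the NF-kB list higher and the joint fit 5.

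IFITM1 of the interferon list and B2M of the antigen presentation list are shown because their promoter windows hold the core of the interferon response element. That core is TTTC, any 2 bases and TTTC again. On either strand 3.57% of all windows of 300 bases hold it, against 29 of 54 windows of the interferon list (53.7%; 40 of 48 genes matched) and 12 of 32 windows of the antigen presentation list (37.5%; 24 of 29 matched). B2M also holds an NF-kB sequence (GGGA, any 1 base, TTTCC) found in 0.558% of all windows, and its interferon matches overlap each other. Capitals mark the matches, which in both genes lie on the opposite strand and so read as the complement. IFITM1 lies at chr11:313790-314059 and B2M at chr15:44711267-44711536, both on the plus strand of GRCh38.p14.
IFITM1: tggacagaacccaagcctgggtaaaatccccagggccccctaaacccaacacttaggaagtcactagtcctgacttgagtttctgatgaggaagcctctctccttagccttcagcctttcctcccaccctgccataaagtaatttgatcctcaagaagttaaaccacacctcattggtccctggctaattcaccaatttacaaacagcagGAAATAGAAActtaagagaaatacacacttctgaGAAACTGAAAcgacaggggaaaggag
B2M: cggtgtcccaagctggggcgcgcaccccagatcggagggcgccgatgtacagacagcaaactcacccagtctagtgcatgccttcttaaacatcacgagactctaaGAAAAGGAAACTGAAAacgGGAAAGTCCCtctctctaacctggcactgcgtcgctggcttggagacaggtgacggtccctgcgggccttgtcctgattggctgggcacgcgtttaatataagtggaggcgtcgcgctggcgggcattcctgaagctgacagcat

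Keratins of differentiated and simple epithelia held rises and no fall. Of 11 suprabasal and simple keratins, 7 were higher and 0 lower by edgeR (4 and 0 by DESeq2). KRT80 went from 4.57 and 3.52 to 12.9 and 12.7 CPM, KRT4, a keratin of oral mucosa, from 4.82 and 3.38 to 9.06 and 9.45 CPM, KRT7 from 126 and 129.6 to 216 and 225 CPM and KRT19 from 125 and 132 to 189 and 197 CPM. The suprabasal keratin KRT10 did not pass (log2 change 0.06, adjusted p = 0.786). KRT13 was 0.16 higher on the log2 scale, a call lost in 5 alternatives, and the call of KRT1 (1.04) was lost when any 1 library was left out. The basal partners KRT5 (values above, adjusted p = 0.44) and KRT14 (4856 and 5088 CPM in controls against 4670 and 4913 CPM, adjusted p = 0.489) overlapped between the groups. KRT15, a basal keratin, nevertheless rose from 176 and 172 to 308 and 319.7 CPM, and KRT17, the stress keratin, from 1536 and 1598 to 2227 and 2417 CPM. In the cornified envelope list 6 of 30 were higher and 1 lower (3 and 0 by DESeq2): IVL, the precursor involucrin, rose from 2.1 and 1.69 to 5.09 and 5.12 CPM and the cross-linking enzyme TGM1 from 74.3 and 67.7 to 93.01 and 97.8 CPM, while SPRR1B overlapped at 2.22 and 1.15 CPM in controls against 1.98 and 1.33 CPM.

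Genes that anchor cells to each other and to the basement membrane were mostly higher where they changed. Hemidesmosome and basement membrane genes gave 13 rises and 1 fall of 24, with a median log2 change of 0.22 (12 and 0 by DESeq2, 6 and 0 in the joint fit). LAMA4, a laminin chain, rose 3.86-fold from 8.83 and 10.6 to 39.1 and 35.9 CPM (adjusted p = 3.41e-13), ITGB4, the hemidesmosomal integrin, from 191 and 174 to 332 and 299.5 CPM and LAMB3 from 462 and 445 to 634 and 642 CPM. COL17A1, the transmembrane collagen of hemidesmosomes, was 1281 and 1320 CPM in controls against 1354 and 1355 CPM (adjusted p = 0.46). Desmosome and adherens junction genes gave 7 rises of 20 and 0 falls by edgeR (6 and 0 by DESeq2), with E-cadherin CDH1 at 216 and 204 CPM in controls against 260.2 and 255 CPM and the desmosomal cadherin DSC2 at 128 and 125 CPM in controls against 169 and 175 CPM. Without overexpression replicate 2 that count was 3 and without replicate 1 it was 4. Among tight junction genes CLDN7 rose from 27.9 and 25.6 to 41.5 and 41.6 CPM and CLDN4 fell from 14.1 and 14.6 to 7.74 and 8.39 CPM, within 5 rises and 1 fall of 21 (3 rises with DESeq2 or without either overexpression replicate).

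Of 32 further integrins and matrix proteins 11 rose and 3 fell (6 rises in the joint fit or without overexpression replicate 2), of 24 contractile and mesenchymal genes 7 rose, and of 29 in the TGF-beta list 8 rose and 6 fell (5 and 3 in the joint fit). The collagen cross-linking enzyme LOXL4 rose from 12.1 and 10.3 to 25 and 24.7 CPM, and fibronectin FN1 fell from 846 and 841 to 708 and 734 CPM, a call lost in the joint fit and without overexpression replicate 1. TAGLN, an actin-binding protein, rose from 14.6 and 16.8 to 30.2 and 28.95 CPM and MYL9, a myosin light chain, from 4.26 and 4.06 to 9.999 and 9.58 CPM, while VIM overlapped at 231 and 285 CPM in controls against 306 and 263 CPM. TGFB2, a growth factor that induces such genes, doubled from 93.9 and 92.2 to 193 and 190.4 CPM (adjusted p = 6.15e-14), and its co-receptor TGFBR3 fell from 25.7 and 22.7 to 13.1 and 13.2 CPM. The fibroblast markers COL1A1 (4.82 and 4.87 CPM in controls against 9.34 and 8.19 CPM) and COL1A2 (8.71 and 7.44 CPM in controls against 19.3 and 23.96 CPM) rose with them. Over all 12 fibroblast markers the summed level was 170.7 and 148.4 CPM in the controls and 181.7 and 186 CPM with overexpression. Of the 9 tested, 3 rose and 1, decorin DCN (20.9 and 18.2 CPM in controls against 15.9 and 15.5 CPM), fell, a call lost in 5 of the alternatives. The part of other cell types in these values was not tested.

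Lysosomal genes gave 19 rises and 5 falls of 37 (11 and 3 by DESeq2, 12 rises in the joint fit or without overexpression replicate 2, 2 falls without overexpression replicate 1). Beyond LAPTM5, the protease cathepsin S (CTSS) rose from 33.9 and 35.03 to 86.3 and 91.97 CPM (log2 change 1.38, adjusted p = 3.02e-14), CTSO from 9.698 and 9.33 to 17.1 and 14.8 CPM and cathepsin D (CTSD), the abundant one, from 331 and 310.3 to 411 and 437 CPM. In bulk RNA, fewer cells in a state and less RNA per cell cannot be told apart, here and below.

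**Figure D3:**
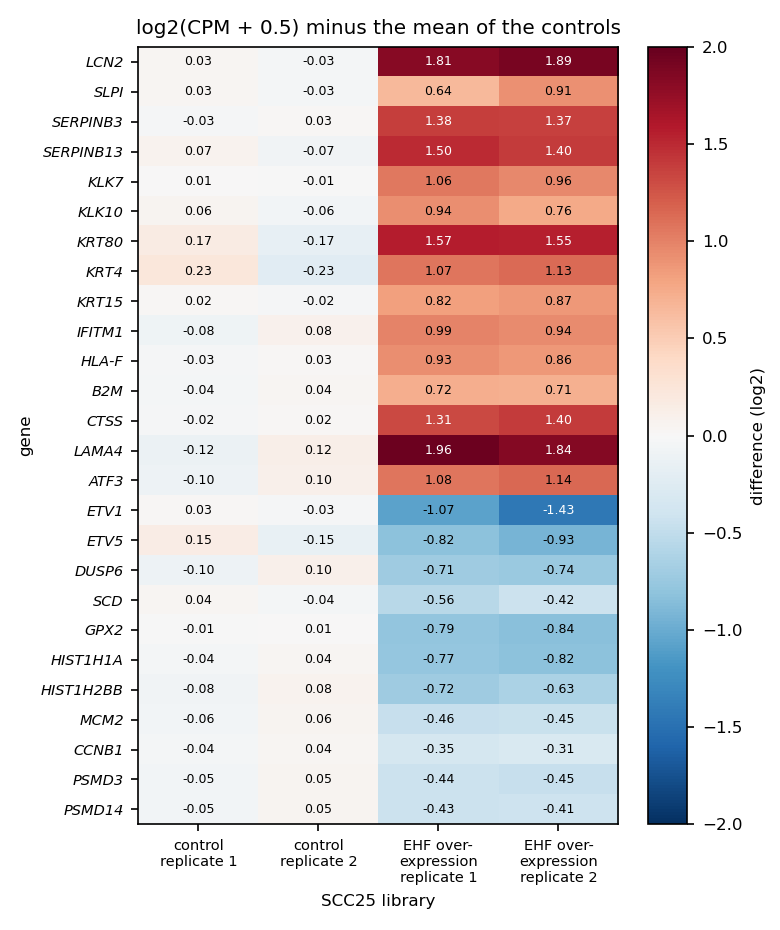
Heat map of 26 named genes in each SCC25 library, as log2(CPM + 0.5) minus the mean of both controls, red above and blue below it, with the value in each cell. The subtraction centres the controls on 0. The genes were picked from those named in the text, so likeness of the overexpression libraries was in part chosen. LCN2 stands at 1.81 and 1.89 in the overexpression libraries and HIST1H1A at -0.77 and -0.82.

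Genes of cell division were lower where they changed, and none of the histone, replication or mitosis genes fell 2-fold. Of 59 replication-dependent histone genes tested, 56 were lower and 0 higher by edgeR (53 and 0 by DESeq2; 53 to 57 lower when 1 library was left out), with a median log2 change of -0.48. The linker histone HIST1H1A went from 80.6 and 85 to 48.4 and 46.8 CPM, HIST1H2BB from 108 and 120.2 to 69.1 and 73.5 CPM and HIST1H4C from 216 and 236 to 159 and 170.2 CPM. Histone genes are near-identical copies, so reads may be shared among them, and their transcripts lack the poly(A) tail that mRNA enrichment selects. Across the list the controls themselves differed by a median of 0.14 (replicate 2 minus replicate 1, log2(CPM + 0.5)), and overexpression replicates 1 and 2 lay -0.50 and -0.45 from the mean of the controls.

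DNA replication genes followed with 44 of 61 lower and 0 higher by edgeR (36 and 0 by DESeq2), with a median of -0.27. MCM2 of the replicative helicase fell from 213 and 232 to 162 and 162 CPM, the clamp PCNA from 243 and 249.6 to 208 and 202 CPM and the clamp loader subunit RFC5 from 69.9 and 73.5 to 49.7 and 53.6 CPM. Mitosis genes gave 34 of 57 lower and 0 higher (20 and 0 by DESeq2, 18 without overexpression replicate 2, 20 in the joint fit), with a median of -0.19. BIRC5, or survivin, went from 222 and 237 to 165 and 174 CPM, AURKB from 58.5 and 66.2 to 47.2 and 45.7 CPM and cyclin B1 (CCNB1) from 245 and 259 to 198 and 203 CPM. D cyclins and CDK inhibitors gave 1 rise and 5 falls of 15 by edgeR (1 and 2 by DESeq2), with a median of 0.02. The rise was CDKN1A, the inhibitor p21, from 35.8 and 36.4 to 48.9 and 50.8 CPM (log2 change 0.47, adjusted p = 2.76e-05). The cyclin-dependent kinase CDK4 fell from 106 and 116 to 85.7 and 90.97 CPM. CDKN2C (-0.36) and RBL1 (-0.27) also fell, calls lost with DESeq2. Cyclin D1 (CCND1) moved from 697 and 672 to 594 and 581 CPM, a call that ended without overexpression replicate 2.

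HIST1H2BB and CDC6 represent the promoters of these lists. Histone windows held CCAAT in 46 of 53 cases (86.8%, against 34.6% of all windows) and the octamer ATTTGCAT in 20 (37.7%, against 1.77%), and 49 of 59 genes were matched. Windows of the DNA replication list held the E2F sequence TTTGGCGC in 12 of 66 cases (18.2%, against 0.652%), with 51 of 61 genes matched. Both strands were searched and capitals mark the octamer and CCAAT in HIST1H2BB, where ATTGG is CCAAT on the opposite strand, and the E2F match alone in CDC6, whose window also holds CCAAT. HIST1H2BB lies at chr6:26043694-26043963 (minus strand) and CDC6, which loads the replicative helicase, at chr17:40287629-40287898 (plus strand). CDC6 itself changed from 92.4 and 100 to 82.4 and 77.5 CPM (adjusted p = 0.0017, lost without overexpression replicate 2).
HIST1H2BB: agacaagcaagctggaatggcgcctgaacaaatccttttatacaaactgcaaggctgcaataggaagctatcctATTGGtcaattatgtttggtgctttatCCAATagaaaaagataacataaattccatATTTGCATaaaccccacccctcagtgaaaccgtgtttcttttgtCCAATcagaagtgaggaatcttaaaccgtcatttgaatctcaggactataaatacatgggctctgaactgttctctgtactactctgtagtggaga
CDC6: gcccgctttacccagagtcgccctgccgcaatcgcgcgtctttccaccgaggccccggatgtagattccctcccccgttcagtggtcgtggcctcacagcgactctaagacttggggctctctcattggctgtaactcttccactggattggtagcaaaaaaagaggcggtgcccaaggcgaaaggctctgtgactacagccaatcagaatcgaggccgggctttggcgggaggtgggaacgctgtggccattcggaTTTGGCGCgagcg

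Subunits of the proteasome list fell nearly as a unit. Of 31 subunits tested 30 were lower and 0 higher by edgeR (29 and 0 by DESeq2; 25 to 30 when 1 library was left out), within a narrow range: the quartiles of the log2 change were -0.34 and -0.25 around a median of -0.29. Each overexpression library showed it, with medians of -0.29 and -0.28 against the mean of the controls. The proteasome genes PSMB8, PSMB9, PSMB10, PSME1 and PSME2 were counted in the antigen presentation list, where 0 of 29 members were lower by edgeR. PSMD3 of the regulatory particle went from 199 and 213 to 152 and 149.9 CPM, the deubiquitinase subunit PSMD14 from 225 and 242 to 173 and 176 CPM, the catalytic subunit PSMB5 from 321 and 337 to 269 and 274 CPM and the core subunit PSMB4 from 319 and 358 to 254 and 265 CPM. The promoter window of PSMD14 is shown for its ETS sequence CCGGAAGT, which overlaps in GGAAGT with the AGGAAGTG of LAPTM5. It occurs on either strand in 4.14% of all windows, those of undetected genes included, in 7 of 32 windows of the proteasome list (21.9%, 26 of 31 genes matched) and in 14 of 85 of the mitochondrial ribosome (16.5%, 68 of 76 matched). Among windows of the genes tested, of which 10802 of 14120 were matched, it occurs in 7.07%. The PSMD14 window lies at chr2:161308175-161308444 (plus strand, GRCh38.p14), with the match in capitals.
PSMD14: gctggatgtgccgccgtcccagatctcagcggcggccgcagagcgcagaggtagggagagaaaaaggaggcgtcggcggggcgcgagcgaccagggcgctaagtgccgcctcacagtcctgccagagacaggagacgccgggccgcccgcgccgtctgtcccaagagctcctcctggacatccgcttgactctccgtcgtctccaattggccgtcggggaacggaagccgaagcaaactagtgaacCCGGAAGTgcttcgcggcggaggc

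In lists of protein and energy production the called members were lower, but in most of these lists fewer members passed than did not. Ribosome biogenesis genes gave 22 of 38 lower and 0 higher by edgeR (13 and 0 by DESeq2; 13 without overexpression replicate 2), with a median of -0.21. BOP1 went from 152 and 173 to 124 and 118 CPM and fibrillarin FBL from 138 and 144 to 117 and 105 CPM. Mitochondrial ribosomal proteins gave 34 of 76 lower and 0 higher (median -0.18) and respiratory chain subunits 30 of 76 lower and 0 higher (median -0.14). These counts moved with the libraries used: 21 and 14 without control replicate 2, 47 and 47 without control replicate 1, 19 and 14 with DESeq2, and 21 and 10 in the joint fit. Cytosolic ribosomal proteins, 11 of 76 lower (near the 11.6% of all genes), ran from 2 without overexpression replicate 1 to 42 without control replicate 1. The controls differed between themselves by a median of 0.13 in that list, more than the list's median change of -0.07, and by 0.12 in the respiratory chain, close to the size of its change. MRPS12 (58 and 63.9 CPM in controls against 44.8 and 50.2 CPM) and the cytochrome CYC1 (331 and 355 CPM in controls against 266 and 290 CPM) are examples whose groups did not overlap.

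**Figure D4:**
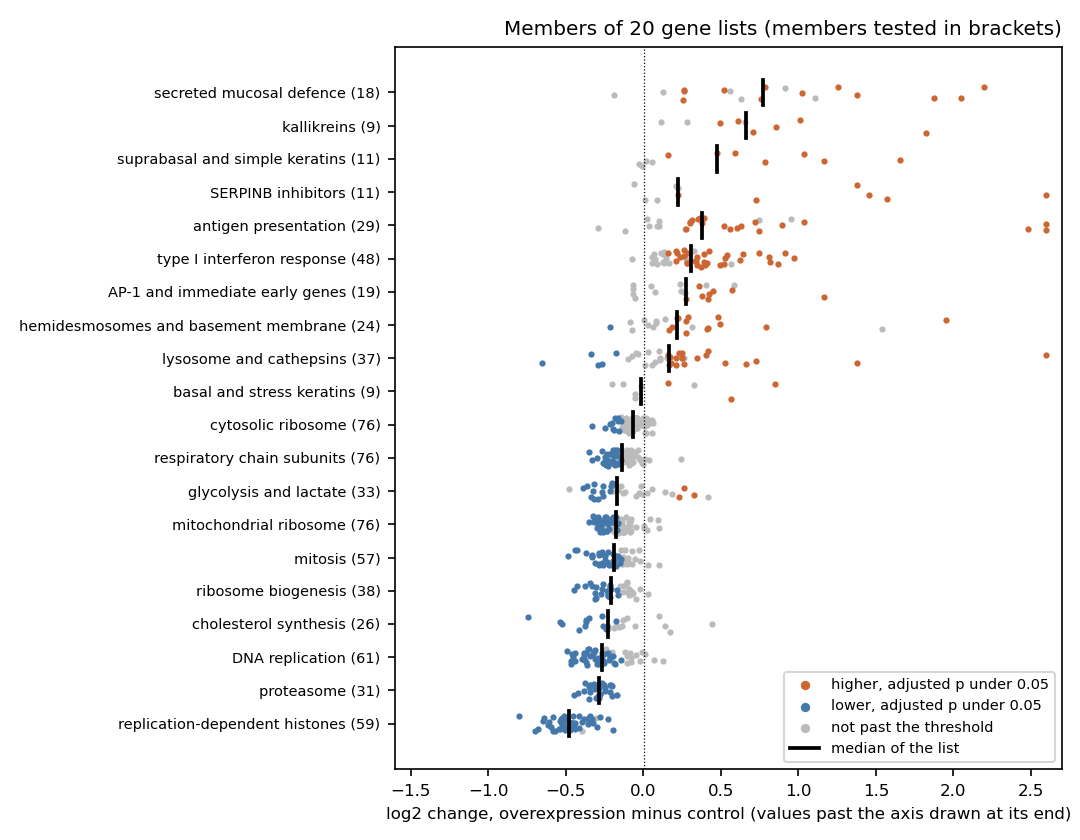
Members of 20 gene lists by log2 change with EHF overexpression in SCC25 (x axis), orange higher and blue lower past adjusted p 0.05, grey not past it, with a black bar at the median of each list and a dotted line at the median of all genes. Most members of the secreted mucosal defence (12 of 18), kallikrein (6 of 9) and antigen presentation (19 of 29) lists passed as higher, and nearly all members of the histone (56 of 59) and proteasome (30 of 31) lists passed as lower.

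In lists of lipid and sugar metabolism falls outnumbered rises. Cholesterol synthesis genes gave 13 of 26 lower and 0 higher by edgeR (9 and 0 by DESeq2): the sterol sensor INSIG1 fell from 44.3 and 44.8 to 31.4 and 30.2 CPM. Fatty acid synthesis genes gave 7 falls and 2 rises of 25 (3 falls with DESeq2, in the joint fit or without either overexpression replicate). The desaturase SCD went from 1228 and 1165 to 813 and 892 CPM and the elongase ELOVL6 from 24.4 and 25.02 to 15 and 16.6 CPM, while FASN overlapped at 84.9 and 78.2 CPM in controls against 88.3 and 75.2 CPM. Glycolysis genes gave 14 falls and 3 rises of 33 (7 falls without overexpression replicate 1), with enolase ENO1 at 3319 and 3644 CPM in controls against 2597 and 2719 CPM and pyruvate kinase PKM, against that direction, at 2008 and 2056 CPM in controls against 2544 and 2558 CPM. Of 47 NRF2 target and glutathione genes 20 fell and 5 rose (11 and 2 by DESeq2, 9 falls without overexpression replicate 1). The peroxidase GPX2 fell from 111 and 112 to 64.2 and 61.9 CPM and NQO1 from 202 and 211 to 169 and 179 CPM. AKR1C1 (129.5 and 120.2 CPM in controls against 63.01 and 76.8 CPM) and AKR1C2 (84.1 and 71.8 CPM in controls against 45.2 and 52.6 CPM) fell too, and their near-identical sequences may share reads. The hydrogen peroxide producer DUOX2 rose from 3.95 and 2.16 to 6.603 and 7.45 CPM, among 8 rises and 4 falls of 26 oxidases and other redox enzymes.

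Several other lists held calls. Unfolded protein response genes gave 11 rises and 1 fall of 29 (5 rises without overexpression replicate 2), with the redox enzyme ERO1LB at 3.95 and 5.07 CPM in controls against 8.02 and 9.38 CPM. Amino acid response genes gave 5 rises and 7 falls of 38 (2 rises without overexpression replicate 1, 3 falls without replicate 2), with DDIT4, an inhibitor of mTOR signalling, at 541 and 562 CPM in controls against 388 and 392 CPM. The list of aryl hydrocarbon receptor targets, which also holds the tryptophan-degrading enzymes IDO1 and TDO2, gave 6 rises and 4 falls of 14. CYP1A1 rose from 0.865 and 0.879 to 2.74 and 2.66 CPM and IDO1 from 2.59 and 3.11 to 5.47 and 5.72 CPM. TDO2 and ABCG2, described above, were among the falls. CYP1B1 changed by 0.05 and AHRR by -0.27 on the log2 scale. Retinoid metabolism gave 7 rises and 1 fall of 21, with the transglutaminase TGM2 at 7.78 and 7.303 CPM in controls against 17.5 and 18.1 CPM and the carrier CRABP2 at 146 and 148 CPM in controls against 220.3 and 229 CPM. Wnt pathway genes gave 9 rises and 2 falls of 33, with WNT3A at 3.03 and 3.11 CPM in controls against 7.36 and 6.85 CPM. Among p53 targets and apoptosis genes, 8 of 38 rose (5 without overexpression replicate 2) and 3 fell, and TP53INP1 went from 10.1 and 9.53 to 18.3 and 18.4 CPM. Hypoxia genes gave 2 rises and 3 falls of 24 and long non-coding RNAs 3 and 2 of 25, near the 12.2% and 11.6% of all genes. Without control replicate 1 the hypoxia rises were 5, and without overexpression replicate 1 the falls were 1. Caveola genes gave 4 rises and 2 falls of 8 (2 rises without overexpression replicate 1, 0 falls without replicate 2), with SDPR at 14.95 and 14.6 CPM in controls against 27.8 and 30.4 CPM.

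A253 had 3 control and 3 overexpression libraries, with doxycycline (1 ug) listed for the latter alone. EHF and doxycycline cannot be told apart there either. The effect in SCC25 was set beside that in A253 by testing the difference itself. It passed for 871 of 15460 genes (5.63%), 369 with the higher value in SCC25 (2.39%) and 502 with the lower (3.25%). The count fell to 529 with DESeq2, and to 556, 318, 326 and 429 without SCC25 control replicate 1, control replicate 2, overexpression replicate 1 and overexpression replicate 2. EHF rose less in SCC25, by a log2 difference of -2.05 (adjusted p = 5.56e-10). Raw EHF counts were 7458 and 6212 in SCC25 controls and 9112 and 13410 with overexpression. In A253 they were 1469, 1625 and 922 in controls and 10746, 12771 and 8611 with overexpression. The lines lay further apart in their controls than with overexpression. The difference was negative and called for 24 of 59 histone genes, 21 of 61 replication genes and 10 of 57 mitosis genes. In the proteasome list this held for 8 of 31 subunits. In each of these lists 0 were called the other way by edgeR. In A253 those lists had 0, 1, 0 and 2 falls past the threshold, where 921 genes were higher (5.96%) and 566 lower (3.66%). Kallikreins differed upwards in 4 of 10, suprabasal keratins in 4 of 14 and hemidesmosome genes in 5 of 25, while secreted mucosal defence differed downwards in 5 of 20.

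Single genes made the contrast plainer. CLU rose more in SCC25 (log2 difference 2.08). FBP1, a gluconeogenic enzyme, had log2 changes of 1.39 in SCC25 and -0.60 in A253 (difference 1.99). Its A253 value rests on few counts, 20, 14 and 11 in controls against 6, 9 and 14 with overexpression. In FBP1 the libraries held 12.9 and 10.8 CPM in SCC25 controls and 29.8 and 32.5 CPM with overexpression. The chemokine CXCL14 overlapped between the SCC25 groups at 20.6 and 23.3 CPM in controls against 21.4 and 20.5 CPM and fell in A253. SPP1 (osteopontin) and the retinol dehydrogenase DHRS9, both far higher in A253 with overexpression, did not pass the test in SCC25 (adjusted p = 0.268 and 0.222). SPP1 stood at 2.47 and 3.85 CPM in SCC25 controls against 1.98 and 2.595 CPM with overexpression, and DHRS9 at 0.927 and 1.42 CPM against 0.566 and 0.799 CPM.

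**Figure D5:**
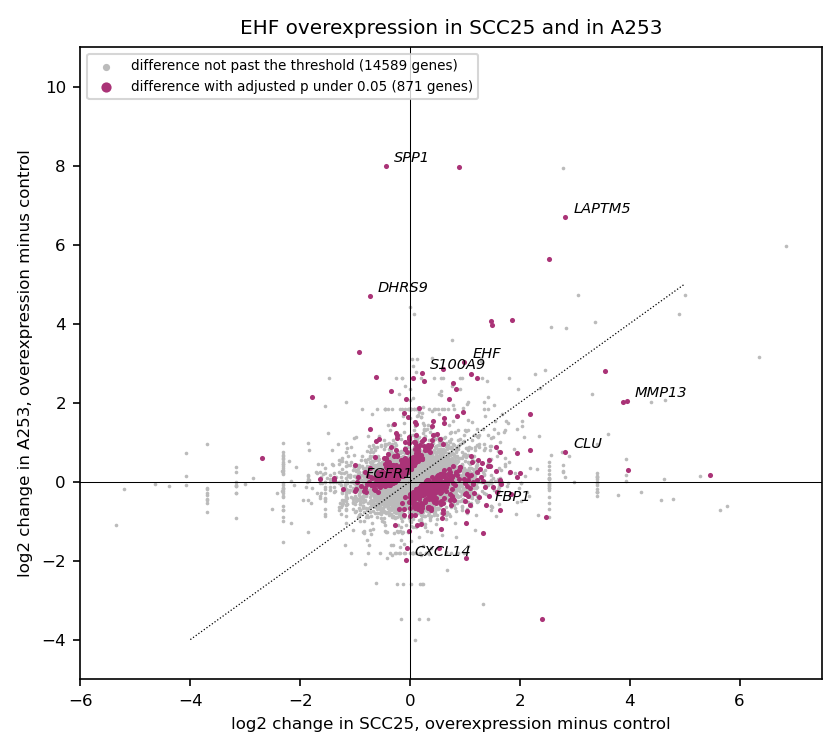
Log2 change with EHF overexpression in SCC25 (x axis) against that in A253 (y axis) for 15460 genes, purple where the difference between the lines passed (871 genes), with a dotted line of equal change. SPP1, DHRS9 and LAPTM5 lie far above the line and MMP13, CLU and FBP1 below it.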

How the data were processed

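RNA of SCC25 cells was sequenced after mRNA enrichment, with 2 control and 2 EHF overexpression libraries. The authors deposited raw counts per gene symbol for 23710 names, from reads mapped to hg19; TopHat2 2.1.1, Bowtie 1.1.1, featureCounts 1.5.3 and DESeq2 1.12.4 are named per the submitters' processing notes. Strand use in counting is not given in the sources used here. Library totals bound the precision: a gene near 1 CPM rests on 11 to 16 counts a library. Of the names, 28 are date-like and 2 repeated.

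Counts were filtered with filterByExpr, scaled by TMM and fitted by edgeR 4.0.16 (R 4.3.3, quasi-likelihood, robust), with Benjamini-Hochberg adjustment at 0.05 over all 14120 genes tested. The difference from A253 was an interaction term over 10 libraries of both lines. Methods were tested on simulated data. DESeq2 1.42.0, limma 3.58.1 (voom), RLE scaling, library totals, other filters, a replicate block, a joint fit with A253 and leaving out each library were alternatives; leaving out the MTRNR2L genes was added after seeing the data. The deposited TPM table was not used.

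Genes named were drawn from EHF and the 12 largest called rises and 12 largest called falls whose groups do not overlap (mean log2 CPM 2 or more). Each list gave its first 3 symbols and up to 4 called members (mean log2 CPM 1 or more). The 4 largest differences from A253 in each direction were added. Not all of these genes are printed, and for several lists the text names called members only. Members and lists were chosen with earlier results of these data known.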

Additional observations from a re-analysis of the deposited data

Results flagged for a closer look

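For 19 named genes the change with EHF overexpression differed between SCC25 and A253 in an interaction term fitted by edgeR, with Benjamini-Hochberg adjustment over 15460 genes. Values are SCC25 minus A253 on the log2 scale. EHF rose less in SCC25 (difference -2.05, adjusted p = 5.56e-10), from a higher control level than in A253. Among genes that rose in both lines, the rise was larger in SCC25 for MMP13 (1.91, adjusted p = 9.93e-10), B4GALNT2 (1.85), KIAA1199 (0.75, adjusted p = 0.00822) and IGFBP3 (0.47). CLU (2.08, adjusted p = 4.91e-07), ABI3BP (1.39) and CNGB1 (1.84, adjusted p = 0.0129) also differed upwards.

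FBP1 differed by 1.99 and CXCL14 by 1.91 (adjusted p = 3.63e-05). The change was lower in SCC25 for HTATSF1P2 (-1.04), ETV5 (-0.77, adjusted p = 0.0472), UBASH3B (-0.78), FGFR1 (-0.96) and PMP22 (-1.06). LAPTM5 (-3.87) and SPP1 (-8.41) rest on A253 controls with 2, 0 and 0 counts and 2, 1 and 0 counts, so these fitted sizes are not bounds. LAPTM5 had 61, 108 and 76 counts in A253 with overexpression, and SPP1 had 266, 333 and 244. DHRS9 (-5.43) and S100A9 (-2.53, adjusted p = 4.11e-11) rose more in A253. The difference did not pass for ETV5 with DESeq2, with a replicate block or when any 1 of the SCC25 libraries or 1 of 4 A253 libraries (control replicates 1 and 2, overexpression replicates 1 and 3) was left out, for FGFR1 without SCC25 control replicate 2 or either overexpression replicate, and for KIAA1199 without SCC25 control replicate 1.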

How the results depend on the processing

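Against 3370 genes called by edgeR in SCC25, DESeq2 called 1599 (842 higher and 757 lower, 94 at least 2-fold) and the joint fit with A253 called 1872 (888 higher and 984 lower), of which 1593 and 1856 were among the 3370 with the same sign. Leaving out 1 library gave 2124 to 3639 genes (1120 to 1800 higher, 1004 to 1839 lower, 169 to 232 at least 2-fold). An arm then holds a lone library, assumed to vary like the other group. RLE scaling, library totals, voom, both filters and the fit without MTRNR2L genes gave 3345 to 3662. The balance turned to more falls than rises with library totals (1557 higher, 1974 lower), with no filter (1713, 1949), without control replicate 1 (1800, 1839) and in the joint fit. The log2 change of EHF ran from 0.925 to 1.058. The difference between lines passed for 529 genes with DESeq2 (269 of them lower) and for 318 to 936 without 1 library (180 to 392 higher, 138 to 569 lower). The balance of the latter turned to more higher than lower without SCC25 control replicate 2 (180, 138), SCC25 overexpression replicate 1 (185, 141) or A253 control replicate 2 (354, 337). No named gene changed direction past the threshold. Replicate numbers did not pair the samples (correlation of same-numbered deviations -0.031). With a replicate block 3521 genes passed in SCC25 and 975 for the difference between lines, and the call of HLA-G ended (adjusted p = 0.187). Depth limits what can be said of genes with few counts, such as ALOX5.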
